A study of Drosophila melanogaster with 3 samples.

Results

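Divergent promoters, the short stretches of DNA from which neighbouring genes are transcribed in opposite directions, held 1316 of the 5326 reproducible peaks of the Mastermind-GFP fusion protein (Mam-GFP) in fly embryos. A reproducible peak was kept when its summit, the position of its highest signal, lay within 500 bp of a protein-coding transcription start site (TSS). In addition, the nearest minus-strand TSS had to lie to the left of the nearest plus-strand TSS, at most 1000 bp away, and the TSSs had to belong to different protein-coding genes. The rule did not use the measured signal. The reproducible list it drew on, however, equals the 5326 strongest of 24073 peaks of the pooled replicates, with a lowest signal of 110. The other 1590 promoter peaks had a summit within 500 bp of a TSS without this head-to-head arrangement.

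The peaks came from chromatin immunoprecipitation and sequencing (ChIP-seq) of whole Drosophila melanogaster embryos aged 0 to 24 h, males and females pooled. The animals carried a MiMIC transposon cassette with an eGFP exon in an intron of mam, so that the gene made a Mam-eGFP fusion, and chromatin sheared to 200 to 800 bp was precipitated with an antibody against GFP. The single group, Mam-GFP embryos, comprised 3 samples numbered as biological replicates 1, 2 and 3, and each mixed all embryonic stages and cell types. The named possible control was not analysed here, so the part of background of the GFP antibody in these summits was not tested. Sequencing depth is unknown because the peak lists hold no read numbers. The signal is the authors' peak height, comparable only within 1 list. The replicates were therefore compared through the 5326 strongest peaks of each, which held 1201, 1346 and 1371 divergent-promoter peaks in replicates 1, 2 and 3.

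Mastermind acts in the nucleus as a coactivator of the Notch pathway. It binds the complex that the cleaved Notch receptor forms with Su(H) (Suppressor of Hairless), the factor that contacts DNA at genes switched on by Notch. The compact fly genome has many head-to-head gene pairs, and in animals such pairs commonly include genes with basic cellular functions that are active in most tissues. Promoters of this broad kind in flies often carry the DNA replication-related element (DRE), bound by Dref, the motif bound by motif 1 binding protein (M1BP), or the promoter elements called motif 6 and motif 7. BEAF-32 is an insulator protein found at many head-to-head promoters, the GAGA factor binds repeats of GA, and Zelda is a pioneer factor of the early embryo.

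The sequences between the TSSs are shown for some of these pairs, whether or not the summit lay between them. They were read from the Release 6 reference (dm6), plus strand, 5′ to 3′, and they start and end 1 base inside the TSS of the minus-strand and the plus-strand gene. Capitals mark matches on either strand to the motifs searched. The DRE was searched as TATCGATA, and the BEAF-32 motif, which the DRE contains, as CGATA. The M1BP motif was searched as GGTCACAC, the E-box as CAGCTG and the GA repeat of the GAGA factor as GAGAGA. The TATA box was searched as TATAAA, the core of the Su(H) site as TGGGAA and the Zelda site as CAGGTA, and motif 6 and motif 7 completed the search. Overlapping matches run together in the capitals. The choice was limited to gaps of 60 to 300 bp without an annotated exon, and the first 4 belong to the strongest peaks of that kind. They were the gaps between Chro and Ssl1 (signal 3140), Atat and Shc (3061), Tcs5 and CHMP2B (2882), and CG7601 and CIA30 (2378).
Chro/Ssl1, chr3L:22878985-22879088: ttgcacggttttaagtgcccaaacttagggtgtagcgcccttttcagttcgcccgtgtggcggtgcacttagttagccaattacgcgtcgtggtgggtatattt
Atat/Shc, chr3L:9426759-9427009: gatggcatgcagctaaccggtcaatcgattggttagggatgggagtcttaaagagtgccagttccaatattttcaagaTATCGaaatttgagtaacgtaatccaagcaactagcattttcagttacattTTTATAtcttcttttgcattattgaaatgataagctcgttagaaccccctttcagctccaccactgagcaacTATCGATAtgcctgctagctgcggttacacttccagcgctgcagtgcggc
Tcs5/CHMP2B, chr3L:5139396-5139618: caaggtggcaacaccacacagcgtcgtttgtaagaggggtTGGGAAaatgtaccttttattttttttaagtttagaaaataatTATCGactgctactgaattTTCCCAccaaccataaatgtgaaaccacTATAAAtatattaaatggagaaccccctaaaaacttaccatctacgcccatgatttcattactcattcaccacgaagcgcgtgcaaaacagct
CG7601/CIA30, chr3R:29736746-29736964: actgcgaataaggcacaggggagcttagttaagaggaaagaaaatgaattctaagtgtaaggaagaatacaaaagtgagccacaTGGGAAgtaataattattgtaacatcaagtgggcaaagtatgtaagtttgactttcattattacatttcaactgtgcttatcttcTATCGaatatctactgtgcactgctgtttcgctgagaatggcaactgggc
The Chro/Ssl1 gap held none of the searched motifs, and its summit lay outside the gap, 104 bp beyond the Chro TSS. The Atat/Shc summit lay 125 bp from the Atat TSS and 127 bp from the Shc TSS, in a gap with a DRE, 3 BEAF-32 matches, 2 of them within the DRE, and 1 TATA match. The Tcs5/CHMP2B gap held 2 Su(H) matches and the CG7601/CIA30 gap held 1.

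The next sequences are the gaps of the strongest further peaks whose gap held a given motif, one each for the DRE (Gmd/CG3792, signal 920), M1BP (GatA/P5cr, 660), motif 6 (elm/MED27, 765), GAGA (AP-2alpha/ebi, 804) and Su(H) (PAPLA1/Rbsn-5, 1029). The last, Coq4/CG32176 (1660), is the strongest further gap with none of them.
Gmd/CG3792, chr2L:4977024-4977311: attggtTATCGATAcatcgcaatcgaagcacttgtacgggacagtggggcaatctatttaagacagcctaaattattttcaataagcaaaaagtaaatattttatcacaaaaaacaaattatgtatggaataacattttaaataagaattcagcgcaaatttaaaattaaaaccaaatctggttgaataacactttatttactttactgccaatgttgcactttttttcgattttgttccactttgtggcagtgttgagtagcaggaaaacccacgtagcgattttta
GatA/P5cr, chr3R:19028858-19028930: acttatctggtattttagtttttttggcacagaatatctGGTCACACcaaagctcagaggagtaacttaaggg
elm/MED27, chr3R:5654862-5655138: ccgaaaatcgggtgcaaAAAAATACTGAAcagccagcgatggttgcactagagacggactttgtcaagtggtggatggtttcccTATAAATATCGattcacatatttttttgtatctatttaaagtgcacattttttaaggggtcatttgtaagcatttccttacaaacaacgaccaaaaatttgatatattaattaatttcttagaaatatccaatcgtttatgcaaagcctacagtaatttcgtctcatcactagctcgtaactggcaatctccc
AP-2alpha/ebi, chr2L:414778-415066: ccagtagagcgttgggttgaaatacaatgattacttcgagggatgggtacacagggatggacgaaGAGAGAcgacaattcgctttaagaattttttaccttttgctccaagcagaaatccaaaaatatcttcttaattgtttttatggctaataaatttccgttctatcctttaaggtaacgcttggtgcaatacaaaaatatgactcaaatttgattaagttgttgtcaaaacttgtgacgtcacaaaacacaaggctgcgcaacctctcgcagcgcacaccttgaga
PAPLA1/Rbsn-5, chr2L:8159639-8159831: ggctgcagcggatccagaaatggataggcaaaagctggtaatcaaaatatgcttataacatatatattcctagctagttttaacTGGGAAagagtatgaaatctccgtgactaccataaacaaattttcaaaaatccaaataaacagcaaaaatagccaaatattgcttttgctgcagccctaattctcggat
Coq4/CG32176, chr3L:17433622-17433867: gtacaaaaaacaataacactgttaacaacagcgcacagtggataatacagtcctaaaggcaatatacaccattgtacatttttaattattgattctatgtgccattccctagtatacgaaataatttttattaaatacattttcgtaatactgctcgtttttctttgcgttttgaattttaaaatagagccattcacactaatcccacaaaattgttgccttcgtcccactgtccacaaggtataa
In the Gmd/CG3792 gap the DRE stood near the Gmd TSS, while the summit lay 128 bp from that TSS. The M1BP match of GatA/P5cr lay inside the gap, but the summit lay 27 bp beyond the P5cr TSS. The elm/MED27 summit lay 143 bp from the elm TSS and 135 bp from the MED27 TSS, and the PAPLA1/Rbsn-5 summit 92 and 102 bp from its TSSs. The 10 gaps shown therefore include summits close to the midpoint of the gap and summits outside it, with and without a searched motif in the gap. The motifs of a gap are not always those around its summit. Within 100 bp of the summit, Chro/Ssl1 had BEAF-32 and TATA matches and Coq4/CG32176 a TATA match. In that window elm/MED27 had BEAF-32 and TATA but no motif 6 match, and Gmd/CG3792 had no searched motif.

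Head-to-head genes carried a Mam-GFP summit far more often than other genes. Of 4991 protein-coding genes in a head-to-head pair, 2345 (47.0%) had a reproducible summit within 500 bp of a TSS, against 1317 of 8977 other genes (14.7%) and 26.2% of all 13968 protein-coding genes. In the replicates the shares were 46.2% ± 2.76 (SD, n = 3) and 14.6% ± 0.223. Counted by pair, 1245 of 2591 head-to-head pairs (48.1%) had a summit near either TSS, with 44.4%, 48.8% and 49.4% in replicates 1, 2 and 3. In 1091 of these pairs both genes had a TSS within 500 bp of a summit. A summit between the TSSs counts for both genes, so the comparison was also made per length of DNA. The windows around head-to-head TSSs held 3.96 summits per 10 kb and those around other TSSs 1.32. The difference was 2.21, 2.73 and 2.75 per 10 kb in replicates 1, 2 and 3, in the same direction in 3 of 3 (exact sign-flip permutation test, two-sided, p = 0.25, adjusted p = 0.333 over 16 comparisons). The size of the difference depended on the peaks and the window used, and a shorter list of peaks lowers both densities. Among pooled peaks below the reproducibility threshold the densities were 3.72 and 3.02, a difference of 0.704. With windows of 200 bp they were 7.29 and 2.05, a difference of 5.24, and with windows of 1000 bp 2.56 and 0.896, a difference of 1.67. For the stronger peaks alone they were 2.36 and 0.702, a difference of 1.66. With 3 replicates this test cannot give a p below 0.25, so here and in what follows no difference can pass the usual threshold, and the replicate values carry the comparison.

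Peaks at divergent promoters were also somewhat stronger than other promoter peaks. Their median signal was 229, with quartiles of 156 and 365 and a range of 110 to 4964, and the median was 205 at other promoters and 177 away from promoters. On the scale of percentiles of signal within the list, the median was 59.7 for divergent and 53.1 for other promoter peaks. In replicates 1, 2 and 3 divergent peaks had medians of 58.8, 61.1 and 60.6, and other promoter peaks 50.9, 53.1 and 52.2. The replicate medians of the classes thus did not overlap (difference 8.09 ± 0.270 percentile points, SD, n = 3, exact permutation p = 0.25, adjusted p = 0.333). The peaks themselves did overlap, since the median signal at other promoters, 205, lay between the quartiles of the divergent peaks. In the reproducible list this difference of 6.61 points was 2.70 among the stronger peaks alone, 10.6 with TSSs at most 500 bp apart, and 11.2 below the reproducibility threshold. Divergent promoters held 344 of the 1065 strongest reproducible peaks (32.3%) and 191 of the 1065 weakest (17.9%). All 3 replicates supported 1034 divergent peaks (78.6%, exact Clopper-Pearson 95% interval 76.3 to 80.8) and 1192 other promoter peaks (75.0%, 72.8 to 77.1), where support means an overlap of at least 1 bp with the strongest peaks of the replicate. A further 230 divergent peaks had the support of 2 replicates, 52 of 1, and 0 had none. These intervals cover counting error only.

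**Figure D1:**
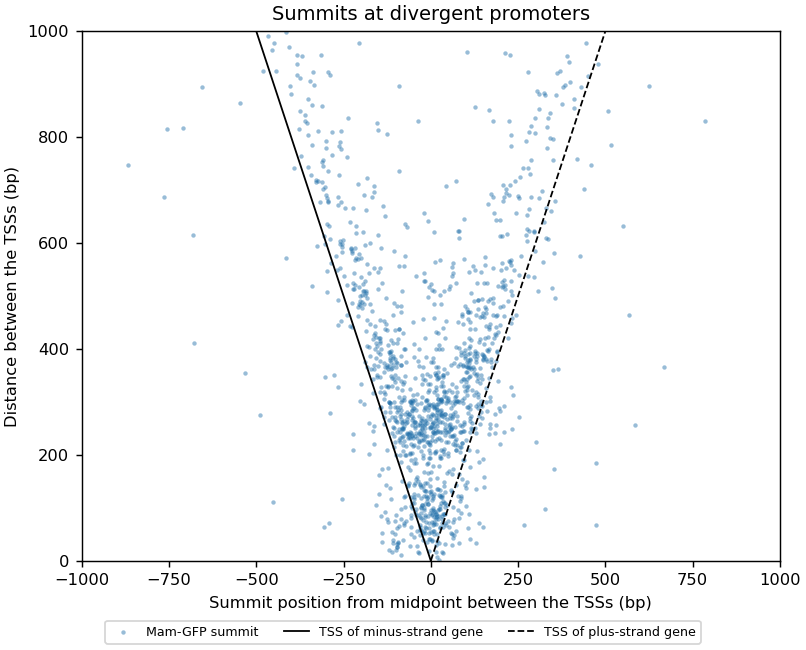
Each point is 1 of the 1316 divergent-promoter summits, placed by its distance in bp from the midpoint between the TSSs (horizontal) and the distance between the TSSs in bp (vertical). The lines mark the TSSs, and 1092 summits lie between them. Below 100 bp many points lie outside the lines (70 of 149 between them), from 101 to 300 bp they fill the gap, and at long distances they form separate bands mostly inside each TSS.

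The position of the summit changed with the width of the gap. Summits lay strictly between the TSSs in 1092 of 1316 peaks (83.0%, and 80.9% ± 3.69 in the replicates, SD, n = 3), with 76.7%, 83.1% and 83.1% in replicates 1, 2 and 3. The other 224 lay on or beyond a TSS, by a median of 44 bp and at most 493 bp. The farthest were those of CG42637/SREBP, Pi3K92E/Lrrk and rno/mri, with summits 485, 493 and 472 bp from the nearer TSS. In gaps of 1 to 100 bp only 70 of 149 summits (47.0%) lay between the TSSs, and the summit was a median of 27 bp from the nearer TSS. In gaps of 101 to 200 bp the summit was a median of 39 bp from the nearer TSS and in gaps of 201 to 300 bp 73 bp. A summit inside a gap cannot lie farther from the nearer TSS than the midpoint. The width itself therefore limits this distance in narrow gaps, which also leave less room for a summit inside. In wider gaps this distance grew little, at 78 bp for 301 to 400 bp, 79.5 bp for 401 to 500 bp, 83.5 bp for 501 to 750 bp and 94 bp for 751 to 1000 bp. When the gap was divided into 3 equal parts, a measure added after seeing the data, the middle part held 34.3% of the summits inside gaps of 1 to 100 bp, 41.7% for 101 to 200 bp, 41.0% for 201 to 300 bp and 28.8% for 301 to 400 bp. It held 11.4% for 401 to 500 bp, 18.6% for 501 to 750 bp and 5.49% (5 of 91) for 751 to 1000 bp. The replicates gave 43.6% ± 2.92 at 1 to 100 bp, 45.6% ± 3.84 at 101 to 200 bp and 6.42% ± 1.21 in the widest class (SD, n = 3). In long gaps most summits thus lay close to 1 of the TSSs rather than midway between them.

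Summits fell on both sides in like numbers. The summit was nearer the plus-strand TSS in 668 of 1316 peaks (50.8%, and 51.0% ± 1.00 in the replicates). The side was mostly the same between replicates, since 812 of the 1034 peaks with full support had a summit nearer the same TSS in all 3 (78.5%, 75.9 to 81.0). Replicate summits lay a median of 12 bp from the pooled summit, and 90% of them within 54 bp. The called interval held at least 1 of the TSSs in 1152 peaks (87.5%) and both in 432 (32.8%). The median distance to the nearest TSS was 67 bp at divergent and 135.5 bp at other promoters, with 67, 70 and 65 bp against 140, 134 and 135 bp in replicates 1, 2 and 3 (exact permutation p = 0.25, adjusted p = 0.333). The rule gives each divergent peak a second TSS within 1000 bp of the first, which by itself can shorten the nearest distance. This test therefore cannot tell the placement of the summits apart from the definition. Of the divergent summits, 1092 had a TSS on either side. The difference of -68.5 bp was -17 bp with promoter windows of 200 bp and -121.5 bp with 1000 bp. The width of the interval could not separate the classes, because 773 of the 1316 divergent peaks shared a single width of 396 bp and both medians were 396 bp.

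**Figure D2:**
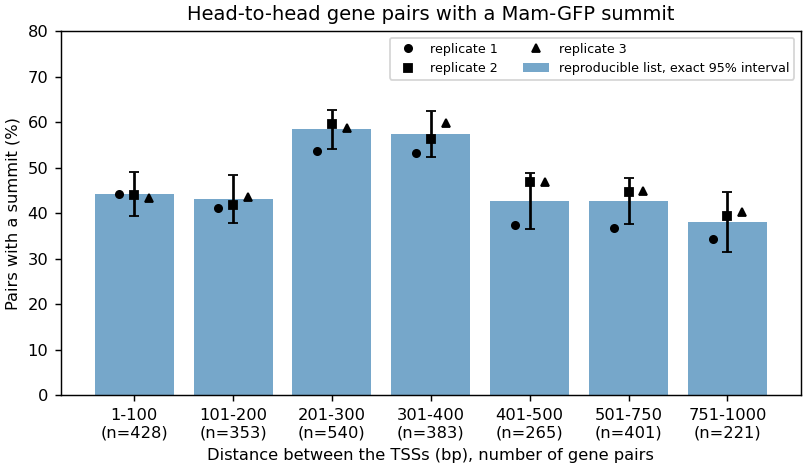
Share of head-to-head gene pairs with a reproducible summit within 500 bp of either TSS (vertical, percent) by distance between the TSSs (horizontal, bp, with the number of pairs), as bars with exact 95% intervals and a point for each replicate. The bars at 201 to 300 and 301 to 400 bp reach 58.5% and 57.4%, and the others lie between 38.0% and 44.2%.

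Pairs with TSSs 201 to 400 bp apart carried a summit most often. The share was 58.5% (316 of 540 pairs, exact 95% interval 54.2 to 62.7) at 201 to 300 bp and 57.4% (220 of 383, 52.3 to 62.4) at 301 to 400 bp. It was 44.2% (189 of 428) at 1 to 100 bp, 43.1% (152 of 353) at 101 to 200 bp, and between 38.0% and 42.6% in the classes beyond 400 bp. In each replicate both of the middle classes lay above the other 5, at 53.7% and 53.3% in replicate 1, 59.6% and 56.4% in replicate 2, and 58.7% and 59.8% in replicate 3. The median signal of the peaks was likewise highest at 201 to 300 bp, at 285, against 227 at 1 to 100 bp, 201 at 101 to 200 bp and 194 at 501 to 750 bp. A comparison of median gaps cannot show this relation, because the share was highest in the middle classes and lower on both sides. Pairs with a summit had a median gap of 292 bp and pairs without one 305.5 bp, and the difference was -22, -5.5 and 1 bp in replicates 1, 2 and 3 (exact permutation p = 0.5, adjusted p = 0.571). The limits of the definition cut through a continuum, as 30 peaks had TSSs 901 to 1000 bp apart and a median signal of 197, and 35 promoter peaks just beyond the limit, up to 1100 bp, had a median of 194. At the limit of 500 bp from the nearer TSS, 4 divergent peaks lay 451 to 500 bp away (median signal 321) and 7 summits of the same arrangement 501 to 550 bp away (232).

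The strongest divergent-promoter peak lay between Ugalt, which encodes a UDP-galactose transporter, and eIF2Bbeta, a subunit of the exchange factor that recycles the translation initiation factor eIF2 (dm6, chromosome X, 2703681 to 2704118). It had signals of 1550, 1677 and 1781 in replicates 1, 2 and 3 and was the peak of rank 2 in each of these lists. Its gap was 719 bp, and the summit lay 31 bp from the Ugalt TSS and 688 bp from that of eIF2Bbeta, with no searched motif around it. The next pair, mRpL41/CG8079 (2R, 15217542 to 15218020), includes a gene of the large subunit of the mitochondrial ribosome. Its signals were 1187, 1351 and 1386, and the summit lay 142 bp from the mRpL41 TSS, in a gap of 762 bp and beside a motif 6 match.

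The Chro/Ssl1 peak (3L, 22878677 to 22879124) had signals of 999, 1037 and 1129 in the 3 replicates. Chro encodes a chromodomain protein of interphase chromosomes and the spindle, and Ssl1 a subunit of the general transcription factor TFIIH. At Atat/Shc (3L, 9426660 to 9427100) the signals were 876, 1109 and 1095. Atat encodes a tubulin acetyltransferase and Shc an adaptor of receptor tyrosine kinases. The Tcs5/CHMP2B peak (3L, 5139300 to 5139705) reached 857, 993 and 1054, and CHMP2B belongs to the ESCRT-III complex of membrane remodelling. PNPase, the mitochondrial polynucleotide phosphorylase gene, and Gprk2, a kinase gene of G protein-coupled receptors, shared a gap of 677 bp whose summit lay 81 bp from PNPase, with signals of 946, 913 and 1023.

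**Figure D3:**
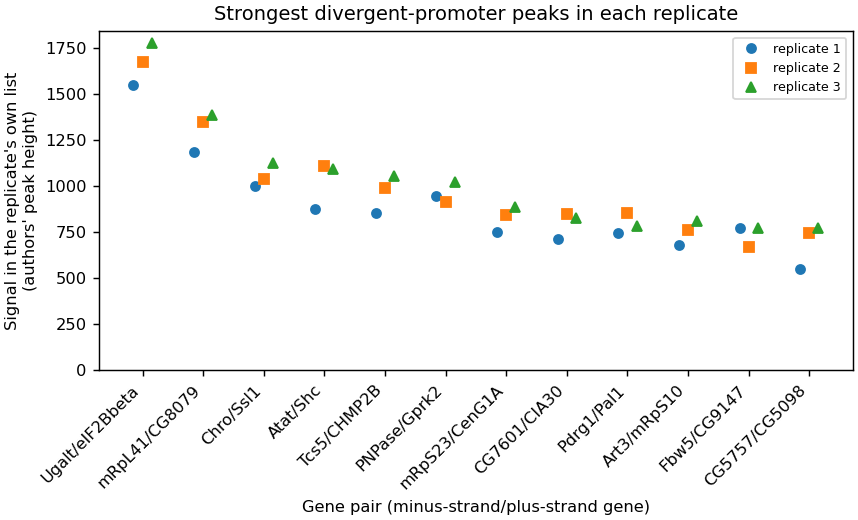
Signal of the 12 strongest divergent-promoter peaks (vertical, the authors' peak height in the replicate's own list) by gene pair (horizontal), with 1 point per replicate. Ugalt/eIF2Bbeta lies highest in all 3 replicates, from 1550 to 1781. Heights are to be read within a replicate, since each list has its own scale.

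Among the remaining 6 of the 12 strongest pairs were 2 further genes of the mitochondrial ribosome. The mRpS23/CenG1A peak had signals of 751, 844 and 887 in replicates 1, 2 and 3, and its summit lay 112 bp from CenG1A, a gene for a GTPase-activating protein, and 380 bp from mRpS23. The Art3/mRpS10 peak had 681, 761 and 813, and Art3 encodes an arginine methyltransferase. CG7601/CIA30, with 712, 849 and 827, includes a gene for an assembly factor of respiratory complex I. Pdrg1/Pal1, Fbw5/CG9147 and CG5757/CG5098 completed the list, with signals between 548 and 853 over the replicates. The summit lay inside the gap in 11 of the 12 strongest, the exception being Chro/Ssl1, and 4 had none of the searched motifs within 100 bp.

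Most pairs had a single summit. The 1316 peaks belonged to 1173 gene pairs, of which 1033 had 1 summit, 137 had 2 and 3 had 3. Pairs with several summits were wider, with a median gap of 383.5 bp against 299 bp for pairs with 1 summit, and in 104 of these 140 pairs at least 1 summit was nearer each TSS. No reproducible summits lay closer than 199 bp to each other anywhere in the list, and the part of this spacing in the wider gaps was not tested. Their strongest summit had a median signal of 328 and the next 166, a median ratio of 1.73. CG3437/CG3552 was the strongest such pair, with signals of 1434 and 165 at its summits, 116 and 87 bp from the CG3552 TSS, the first inside the gap and the other beyond it. Acbp1/Piezo, an acyl-CoA binding protein gene beside a mechanosensitive channel gene, had 1007 and 180, and Gmd/CG3792 had 920 and 180. CG10747/Pyroxd1 (914 and 291), RpL34b/CG8132 (904 and 223) and CG1275/Elp5 (899 and 152) followed. Some of these summits share 1 called interval, as did 18 divergent peaks in all, so that the support of the weaker summit by a replicate cannot be told apart from that of the stronger.

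The DRE, the M1BP motif, motif 6 and motif 7, named above for broadly active promoters, were more frequent at divergent than at other promoter peaks. So were motifs not named there for such promoters, the BEAF-32 motif, the E-box and TATA. The DRE stood within 100 bp of the summit in 170 of 1316 divergent peaks (12.9%, exact 95% interval 11.2 to 14.9) and 126 of 1590 others (7.92%, 6.64 to 9.36). All TSS windows of the genome of the same length held it in 6.44%. The DRE shares were 12.7%, 12.6% and 13.0% at divergent peaks in replicates 1, 2 and 3, and 6.37%, 7.98% and 8.11% at other promoter peaks, so they did not overlap. The BEAF-32 motif was found in 51.4% against 40.1% (37.1% of TSS windows), and counted only where no DRE was present, in 38.5% against 32.1%. Motif 7 was found in 4.48% against 2.64% (1.58% of TSS windows), and motif 6 in 2.05% against 0.692% (1.43%). The M1BP motif was found in 6.61% against 4.65% (5.68%). The E-box followed with 16.0% against 12.6% (13.4%), and TATA with 34.0% against 26.0% (26.9%). Each of these differences had the same sign in 3 of 3 replicates (exact permutation p = 0.25 and adjusted p = 0.333 for each).

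The sizes of these differences were less stable than their signs. With promoter windows of 200 bp, where both classes of summit lie closer to a TSS, the DRE difference of 4.99 percentage points was 2.06, that of BEAF-32, 11.4 points, was 5.89, and that of the E-box, 3.39 points, was 0.768. The M1BP difference of 1.96 points was 0.158 there, with a replicate mean of -0.523, and 0.845 without replicate 3. With only the outermost TSS of each gene, BEAF-32 differed by 4.47 points, the DRE by 3.35, M1BP by 0.975, motif 6 by 0.744 and motif 7 by 0.582. With 50 bp around the summit the M1BP difference was 0.372, that of the E-box 0.563 and that of TATA 2.95 points.

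**Figure D4:**
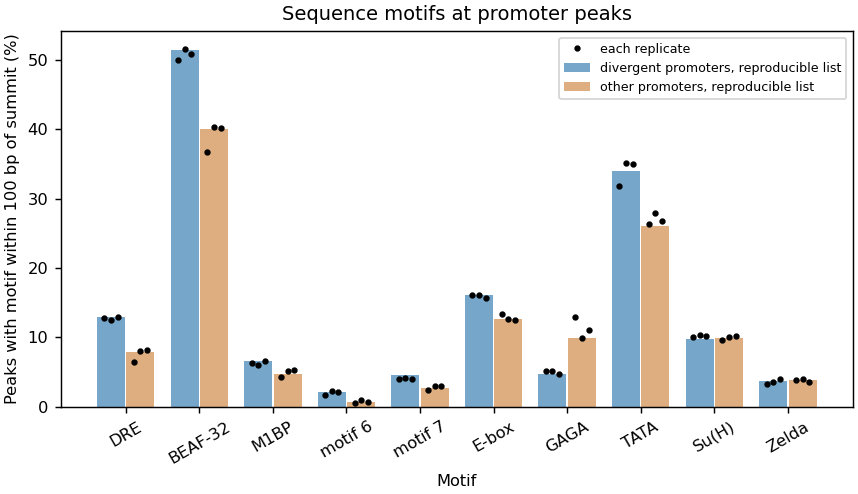
Share of promoter peaks with a motif within 100 bp of the summit (vertical, percent) for the 10 motifs searched (horizontal), at divergent and other promoters, as bars for the reproducible list and a point for each replicate. BEAF-32 (51.4% against 40.1%) and the DRE (12.9% against 7.92%) are higher at divergent promoters in every replicate, GAGA is lower, and the Su(H) bars are level at 9.73% and 9.87%.

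The GAGA motif went the other way, with 4.71% at divergent and 9.87% at other promoter peaks (9.73% of TSS windows). The shares were 5.08%, 5.13% and 4.67% at divergent peaks in replicates 1, 2 and 3 and 12.9%, 9.94% and 11.1% at other promoter peaks (exact permutation p = 0.25, adjusted p = 0.333). The Su(H) motif, that of the DNA-binding partner of Mastermind, stood at 9.73% (8.18 to 11.5) of divergent and 9.87% (8.45 to 11.4) of other promoter peaks, and in 11.0% of all TSS windows. Its difference was 0.404, 0.183 and -0.00519 percentage points in replicates 1, 2 and 3, a mean of 0.194 ± 0.205 (SD, n = 3; exact permutation p = 0.5, adjusted p = 0.571). The Zelda motif stood in 3.65% and 3.84% (exact permutation p = 0.75, adjusted p = 0.8). None of the 10 motifs was found at 234 divergent peaks (17.8%).

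The motifs were also compared within the 2591 head-to-head pairs, between those with and those without a summit, a comparison added after seeing the data. With 100 bp added on each side, the gap held a DRE in 26.5% of the pairs with a summit and 17.8% of those without, 26.3% ± 0.416 and 18.1% ± 0.770 in the replicates (SD, n = 3). The BEAF-32 motif stood in 77.2% against 71.2%, motif 7 in 7.71% against 3.12% and the E-box in 34.7% against 28.4%. M1BP, with 19.4% against 18.9%, motif 6, with 5.46% against 5.57%, and TATA, with 63.5% against 64.0%, differed little between these pairs. The same held for Zelda, with 10.8% against 10.8%. Su(H) stood in 24.7% against 28.8%, with 24.3% ± 0.557 and 29.1% ± 0.234 in the replicates. GAGA was likewise less frequent in pairs with a summit, with 13.0% against 15.8%. The length searched varied with the gap, whose median was 292 bp in pairs with a summit and 305.5 bp in pairs without. The part of this length in the differences was not tested.

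In a comparison within divergent peaks that was likewise added after seeing the data, those with an M1BP motif were weaker, with a median signal of 173 against 238 without it. On the percentile scale the difference was -19.0, -17.0 and -18.5 in replicates 1, 2 and 3 (exact permutation p = 0.25, the smallest possible). Peaks with a BEAF-32 motif were lower by a smaller amount, with 57.3 against 63.2, and a replicate difference of -5.69 ± 1.30 (SD, n = 3; exact permutation p = 0.25). Lower values in all 3 replicates were also found for motif 6 (-16.7 ± 14.1, with -0.516 in replicate 1), GAGA (-7.58 ± 2.88) and Zelda (-5.58 ± 1.89), and higher values for TATA (3.81 ± 2.33), each with exact permutation p = 0.25. For the DRE the difference was -2.29 ± 4.35 and for Su(H) 0.632 ± 2.09, both with exact permutation p = 0.75. A match of letters is a description of the sequence and does not show that the factor was bound.

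**Figure D5:**
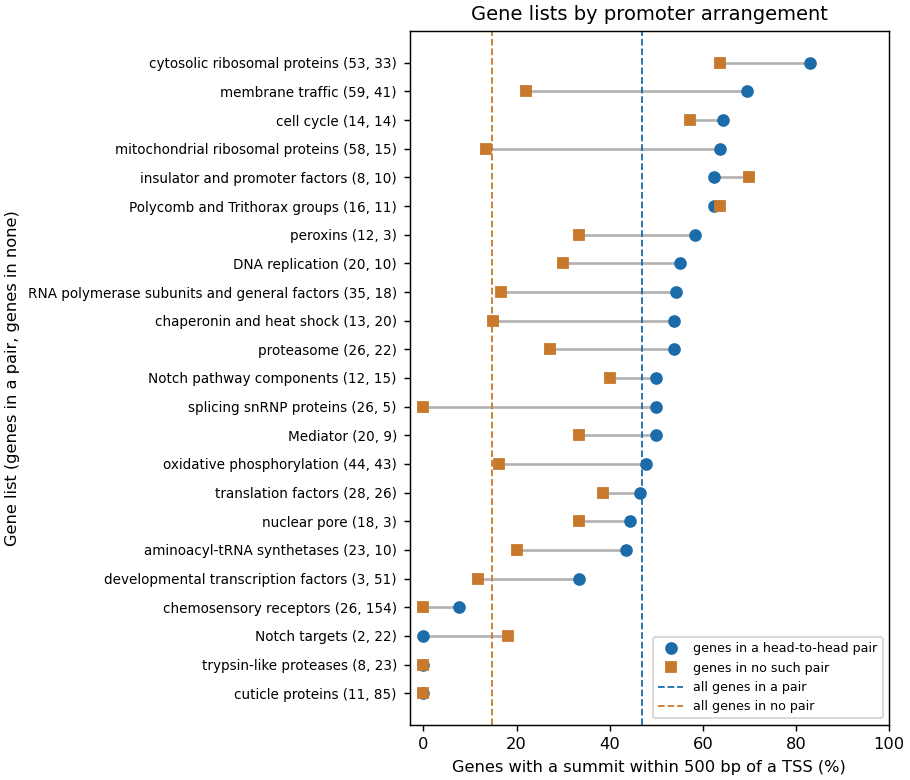
Share of the genes of 23 lists with a reproducible summit within 500 bp of a TSS (horizontal, percent), for genes in a head-to-head pair (circles) and in none (squares). The numbers of genes stand beside each list, and dashed lines give the shares over all genes, 47.0% and 14.7%. Cytosolic ribosomal protein genes are highest among genes in a pair at 83.0%.

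The gene lists were drawn up by symbol, and leave out genes of like function under other symbols, so a strongest peak is the strongest within its list. Genes of the cytosolic ribosome, which makes most cellular protein, carried summits more often than head-to-head genes in general. Of 53 such genes in a pair, 44 had a summit (83.0%, exact 95% interval 70.2 to 91.9, and 82.4% ± 2.18 in the replicates), against 47.0% of all genes in a pair. Of 33 in no pair, 21 did (63.6%), against 14.7% of all such genes. At 38 of 55 divergent peaks with 1 ribosomal protein gene the summit was nearer the ribosomal protein gene than its partner (69.1%, and 72.0% ± 3.23 in the replicates, SD, n = 3). RpL32/CG7943 had the strongest peak, with signals of 382, 422 and 542, and its summit lay 110 bp from CG7943 and 199 bp from RpL32. RpS27/Nup37, with 271, 395 and 434, had its summit 24 bp from RpS27, and RpL34b/CG8132, with 227, 299 and 390, 83 bp from RpL34b. At CG17271/RpS20 the signals were 262, 324 and 306.

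Genes of the mitochondrial ribosome differed from these in where their peaks lay. Of 58 in a pair, 37 had a summit (63.8%, 50.1 to 76.0), against 47.0% of all genes in a pair. Of 15 in no pair 2 did (13.3%), against 14.7% of all such genes. The summit was nearer the mitochondrial ribosomal gene at 18 of 41 peaks (43.9%, and 41.9% ± 1.95 in the replicates). The peak of mRpL23/CG9004, with 493, 597 and 711, lay 33 bp from mRpL23, on the far side of its TSS from CG9004. Oxidative phosphorylation genes were close to the background, with 21 of 44 in a pair (47.7%) and 7 of 43 in none (16.3%). Their strongest peaks included TppII/ND-MWFE (251, 334 and 313), ND-ASHI/Fum1 (249, 202 and 250) and ND-51/CG13994 (162, 230 and 210), all with subunits of complex I, and glo/COX5A (166, 167 and 174) with a subunit of cytochrome c oxidase.

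Among the genes of translation, initiation and elongation factors had a summit at 13 of 28 genes in a pair (46.4%). Aminoacyl-tRNA synthetases had one at 10 of 23 (43.5%), and both shares were near the 47.0% of all genes in a pair. In no pair, 10 of 26 factor genes (38.5%) and 2 of 10 synthetase genes (20%) had a summit, against 14.7% of all such genes. The synthetase peaks with the highest signal were those of SerRS/CG17260 (219, 267 and 281), ArgRS/CG8578 (142, 193 and 204), Hem/IleRS (159, 190 and 178) and GluProRS/AP-1sigma (147, 176 and 193). After the eIF2Bbeta peak, the translation factor peaks were those of eIF4EHP, eIF3c and eIF3h, between 125 and 236 over the replicates. Membrane traffic genes, for vesicle coats, tethers and sorting complexes, stood higher than the 47.0%, with 41 of 59 in a pair (69.5%, 56.1 to 80.8). Of 41 in no pair 9 had a summit (22.0%), against 14.7% of all genes in no pair. The strongest peaks of this list, which does not hold CHMP2B, were Fur1/Vps33B (419, 448 and 534), Vps36/Liprin-beta (251, 355 and 337), Sec61alpha/Daxx and alphaCOP/CG13919. Vps36 is a subunit of ESCRT-II, Sec61alpha the pore of the translocon, and alphaCOP a subunit of the COPI coat.

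The proteasome and nuclear complexes lay between 44.4% and 55.0% for genes in a pair, near the 47.0% of all genes in a pair. Proteasome genes had a summit at 14 of 26 (53.8%), Mediator genes at 10 of 20, splicing proteins at 13 of 26, RNA polymerase subunits and general factors at 19 of 35 (54.3%), DNA replication genes at 11 of 20 (55.0%) and nuclear pore genes at 8 of 18 (44.4%). In no pair, where 14.7% of all genes had a summit, the counts were 6 of 22 for the proteasome (27.3%), 3 of 9 for Mediator (33.3%), 0 of 5 for splicing, 3 of 18 for RNA polymerase and general factors (16.7%), 3 of 10 for replication and 1 of 3 for the nuclear pore. The MED30/Rev1 peak (357, 438 and 464) and the CG11247/Polr2H peak (275, 359 and 358) were the strongest of Mediator and of RNA polymerase. Hat1/Rpn5 (223, 232 and 249), with a subunit of the proteasome lid, Sf3b6/Tnpo (140, 161 and 175) and dup/SRPK (183, 143 and 128) were the strongest of the proteasome, splicing and replication lists, and dup encodes the replication licensing factor Cdt1. The helicase subunit gene dpa, not on the replication list, had a stronger peak than dup, shared with didum. Of the nuclear pore genes, Nup98-96/mbc (205, 300 and 272) came after RpS27/Nup37.

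Further subunits of the same complexes had summits close to their own TSS or to that of the partner. The Rpn6/ave summit (153, 176 and 150) lay 124 bp from Rpn6 and 126 bp from ave, and the Prosbeta1/Rrp42 summit (81.0, 125 and 138) 91 bp from Prosbeta1 and 30 bp from Rrp42. At 140up/Polr2B (165, 205 and 196) the summit lay 34 bp from the gene of the RNA polymerase II subunit, and at pll/TfIIA-L (144, 173 and 184) 206 bp from the general factor gene and 42 bp from pll, a kinase gene of the Toll pathway. The MED7/Cap-H2 summit (115, 152 and 153) lay 54 bp from MED7, and the Csl4/Nup160 summit (176, 168 and 186) 75 bp from Nup160. In 2 pairs both genes came from the same list. RPA1/Mcm2 joins the large subunit of the single-strand binding complex and a subunit of the replicative helicase, with signals of 47.7, 133 and 127, the first of them well below the others. Pex16/Pex14 joins genes of peroxisome assembly, with 120, 181 and 146. Peroxins in a pair had a summit at 7 of 12 genes (58.3%, exact 95% interval 27.7 to 84.8) and chaperone genes at 7 of 13 (53.8%, 25.1 to 80.8), and both intervals include the 47.0% of all genes in a pair. The chaperone genes with the strongest divergent peaks were Hsc70-5, Hsc70-4, Hsp83 and CCT8.

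Genes for regulators of chromatin and of the cell cycle carried summits with and without a head-to-head partner. Cell cycle genes had a summit at 9 of 14 in a pair (64.3%) and 8 of 14 in none (57.1%), Polycomb and Trithorax group genes at 10 of 16 (62.5%) and 7 of 11 (63.6%), and insulator and promoter factor genes at 5 of 8 (62.5%) and 7 of 10 in none. Over all genes the shares were 47.0% in a pair and 14.7% in none, and the exact 95% intervals of the in-pair shares, 35.1 to 87.2, 35.4 to 84.8 and 24.5 to 91.5, all include 47.0%. The brm/Arl1 peak (169, 204 and 253) has the gene of the Brahma remodelling ATPase, CG3281/aurA (138, 160 and 133) that of the Aurora A kinase of mitosis, and Cp190/CG4338 (198, 199 and 216) that of an insulator cofactor, with a DRE within 100 bp of its summit. Dref/RpL13 (121, 124 and 139) holds the gene of the DRE-binding factor, and M1BP/CG8202 (54.2, 133 and 143) that of the M1BP protein. The Dref peak had a BEAF-32 and no DRE match, and the M1BP peak no M1BP match.

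Lists of structural, digestive and sensory genes active in particular tissues had few or no summits. Cuticle proteins had 0 of 11 genes in a pair, an exact 95% upper limit of 28.5%, and trypsin-like proteases 0 of 8, an upper limit of 36.9%. Chemosensory receptors had 2 of 26 (7.69%), and over all genes in a pair the share with a summit was 47.0%. In no pair, 0 of 85 cuticle protein, 0 of 23 protease and 0 of 154 receptor genes had a summit. Over all genes in no pair the share was 14.7%. The Ir60e/CG13585 peak (81.8, 73.6 and 101) and the Gr63a/Lamtor4 peak (40.1, 41.9 and 50.6) both lay nearer the partner of the receptor gene, at 57 and 14 bp. The Idua/Gr32a peak lay 107 bp from Idua and 846 bp from Gr32a. That of Jon65Ai/tant, with a protease gene, lay 175 bp from tant and 518 bp from Jon65Ai. The Gr63a/Lamtor4 and Jon65Ai/tant peaks each had the support of 2 replicates only. Developmental transcription factors were rarely in a pair, 3 of 54 genes, and 1 of these had a summit, Mef2, a regulator of muscle, with signals of 50.8, 51.6 and 67.7. Of the 51 in no pair 6 had a summit (11.8%), near the 14.7% of all genes in no pair.

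Notch pathway components in a pair had a summit at 6 of 12 genes (exact 95% interval of the share 21.1 to 78.9%), close to the 47.0% of all genes in a pair. The gene of Su(H) shared a gap of 627 bp with CIAPIN1, and the summit lay 38 bp from the Su(H) TSS and within 100 bp of a DRE, with signals of 44.7, 63.9 and 74.3. The tagged gene mam had a summit 109 bp from its TSS, outside the gap shared with RN-tre, with signals of 63.3, 61.1 and 44.4. The γ-secretase subunit genes aph-1 and pen-2 had peaks with Snx21 (166, 237 and 245) and Ote (72.9, 73.6 and 78.4). The Ote/pen-2 summit was nearer Ote, at 48 bp against 214 bp. The gene of the Mediator subunit skd had a peak with Pdss2 (90.4, 161 and 142), 33 bp from the Pdss2 TSS. The sixth, neur, an E3 ligase gene, had a summit within 500 bp of a TSS that did not meet the divergent rule. The RpL7A/dx peak, with 24.9, 59.3 and 56.8, lay 21 bp from RpL7A and 722 bp from dx. CtBP, Psn, kuz, O-fut1 and CycC had no summit although they are in a pair. Of the 15 components in no pair 6 had a summit (40%), above the 14.7% of all genes in no pair. These were N, gro, nej, numb, bib and Cdk8. Only 2 of 24 Notch target genes, E(spl)mdelta-HLH and her, were in a pair at all, and neither had a summit, a count too small to compare (exact 95% upper limit 84.2%). Of the 22 targets in no pair 4 had one (18.2%), near the 14.7% of all genes in no pair.

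Divergent-promoter peaks occurred on all main chromosome arms. The share of head-to-head pairs with a summit was 43.5% on 2L (217 of 499), 45.2% on 2R (238 of 526), 50.1% on 3L (253 of 505), 52.6% on 3R (344 of 654) and 47.5% on X (188 of 396). The replicate values were 44.2% ± 2.51 on 2L and 52.2% ± 2.69 on 3R (SD, n = 3), a gap wider than either spread, and 44.2% ± 2.66, 50.2% ± 1.98 and 45.5% ± 4.01 on 2R, 3L and X. Chromosome 4 has 11 pairs, of which 5 had a summit (45.5%, 16.7 to 76.6).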

How the data were processed

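The authors deposited peak lists in dm6 for each replicate, for the pooled replicates and for peaks that passed the irreproducible discovery rate procedure, per the file names and the notes deposited with the samples. The signal values are the authors' peak heights. Their scaling, the aligner and the peak caller are not stated in the labels or notes. The dm3 lists were not used. The 5326 reproducible peaks equal the strongest 5326 of 24073 pooled peaks, and the replicate lists held 30000, 24267 and 24306. TSSs of all protein-coding transcripts came from Ensembl release 115 (BDGP6.54) and sequence from the RefSeq Release 6 genome, the dm6 sequence. Head-to-head pairs have no other protein-coding TSS between them. Shares have exact Clopper-Pearson 95% intervals. Divergent and other peaks were compared by exact sign-flip permutation over 3 replicate differences, two-sided, with Benjamini-Hochberg adjustment over 16 comparisons. Depth is unknown.

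The members, the 23 gene lists and the motifs were chosen with earlier results of these data known. Named pairs were taken from the 12 strongest pairs, up to 4 genes with the strongest divergent peak per list, Notch genes in pairs, pairs within 1 list, the 6 strongest pairs with several summits and up to 3 summits far outside the gap. TSS positions shared by several genes (65 peaks) were named by 1 of them. The calculations used Python 3.11.15, numpy 2.4.6 and scipy 1.17.1, and were tested on simulated data.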

Additional observations from a re-analysis of the deposited data

How the results depend on the processing

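Leaving aside peak width, whose difference of 0 has no direction and became -7.5 bp among the stronger peaks, and the backwards motifs, 183 of 200 differences between classes kept their direction under the alternatives. For 11 of 15 comparisons every such alternative did, though the sizes of several moved by more than 1.5 times, as given in the report. The Su(H) difference of -0.148 percentage points became 0.960 with 200 bp around the summit, 0.688 for peaks supported by all 3 replicates, 0.331 with promoter windows of 1000 bp, 0.189 for the stronger peaks, and 0.177 to 0.845 without 1 replicate. The Zelda difference became 0.240 and 0.0864 with TSSs at most 300 and 500 bp apart, 0.458 with 200 bp around the summit, 0.0797 with the outermost TSS per gene, 0.192 for peaks below the reproducibility threshold and 0.464 with promoter windows of 200 bp. The gap difference became 52 and 26 bp with TSSs at most 300 and 500 bp apart and 54 bp for peaks below the threshold. The motifs read backwards, a control of base composition, gave -0.288 for motif 6, -0.338 for motif 7, 0.246 for the DRE, 0.228 for M1BP, 0.456 for the E-box, 3.06 for BEAF-32 and 1.84 for TATA. Su(H) read backwards gave -0.915 and Zelda -0.260, both larger in size than the differences of -0.148 and -0.189 read forwards. GAGA read backwards is again a GA repeat and was not run. The share of summits upstream of the nearest TSS, added after seeing the data, was 83.0% at divergent and 85.2% at other promoters, and its difference became 0.248 with windows of 200 bp. For each, the cause was not tested.

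The divergent share of promoter peaks, 45.3%, was 21.0% and 34.3% with TSSs at most 300 and 500 bp apart, 48.4% with the outermost TSS, 26.6% below the threshold, 40.9% and 54.7% with windows of 1000 and 200 bp, and 48.3% among the stronger peaks. The share of pairs with a summit, 48.1%, was 38.1% with full support, 41.3% below the threshold, 50.8% with windows of 1000 bp, 30.6% with the stronger peaks and 38.9% to 43.8% without 1 replicate. The number of divergent peaks, 1316, was 609 with TSSs at most 300 bp apart and 787 among the stronger peaks. The tests compare the classes within each replicate, and with 1 group no further block by replicate applies. With 3 replicates and no read depth, small differences in motif share cannot be resolved.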
